A study of Mus musculus with 24 samples.

Results

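Insulin signalling in the liver was followed through 10 genes: the receptor gene Insr, the adaptor genes Irs1 and Irs2, the phosphoinositide 3-kinase genes Pik3r1 and Pik3ca, the kinase genes Akt1 and Akt2, the transcription factor genes Foxo1 and Foxo3, and the phosphatase gene Ptpn1. Members were all probes on the array whose gene name was exactly one of these symbols, which gave 20 of 56605 probes for 10 of the 37074 gene symbols on the array. Of the 20, 19 passed the filter on dim probes and were among the 30003 probes tested. The probe left out was one of 3 for Ptpn1, which was well above background on 2 of 24 arrays. Every gene kept at least 1 tested probe.

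RNA came from the liver of 24 male C57Bl6J mice of the third generation of a breeding scheme, with 1 array in 1 colour (Agilent, Cy3) per mouse, and the mice were killed while fasting. The reference group (STD_Cont, 9 mice) came from the control fatty acid lineage, whose growing diet had held high-oleic sunflower oil, and was fed a low-fat diet (STD). HFoleic (HFD_Cont, 8 mice) was of the same lineage and received the obesogenic diet (HFD), rich in fat and in sucrose. HFepa (HFD_O3, 7 mice) was fed the same obesogenic diet and came from the lineage given a fish oil over the generations, whose main omega 3 fatty acid is eicosapentaenoic acid (EPA). The EPA lineage had no group on the low-fat diet here, so lineage and its response to the diet cannot be told apart in HFepa against reference. In HFepa against HFoleic, likewise, a standing difference of the lineages and an unlike response to the diet cannot be told apart. The labels do not give the age of the mice or which of them were littermates, and p-values measure the spread between these mice.

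Insulin binds its receptor on hepatocytes, which phosphorylates the adaptors Irs1 and Irs2. The adaptors recruit phosphoinositide 3-kinase, its lipid product brings Akt to the membrane, and Akt keeps the FoxO factors out of the nucleus, so that genes of glucose production fall silent. Irs2 is the adaptor that liver makes mainly in the fasted state: insulin lowers its mRNA, FoxO factors raise it, and sterol regulatory element binding protein 1c, made from Srebf1, is known to oppose them at its promoter.

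The RefSeq promoter windows of Irs2 and Irs1 are shown because both hold the same pair of motifs before the start site. The 130 bases before each start site (build GRCm38.p6, minus strand) are chr8:11008930-11009059 for Irs2 and chr1:82291440-82291569 for Irs1. Capitals mark an E-box (CACGTG) and an insulin response element (CAAAACA, here on the opposite strand as TGTTTTG).
Irs2 promoter: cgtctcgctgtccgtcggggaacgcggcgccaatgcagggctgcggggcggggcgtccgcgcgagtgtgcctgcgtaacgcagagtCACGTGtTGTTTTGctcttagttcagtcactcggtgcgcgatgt
Irs1 promoter: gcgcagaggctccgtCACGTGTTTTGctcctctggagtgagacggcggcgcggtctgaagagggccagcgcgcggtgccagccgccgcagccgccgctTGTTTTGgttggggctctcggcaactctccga
Counted back from the start site, the E-box of Irs2 lies at -44 to -39 and its insulin response element at -37 to -31. In Irs1 the E-box at -115 to -110 overlaps an insulin response element at -111 to -105, and another insulin response element begins at -32. Windows of 300 bases (250 before and 50 after the start) were searched on both strands. Among all 32841 promoter windows of that length, 6.28% hold the insulin response element letters and 7.15% the E-box letters. The FoxO motif GTAAACA, present in 3.65% of all windows, was found among the members only in 1 window of Akt1. TGACG, the core of the cAMP response element, was present in windows of Irs1, Akt2, Foxo3 and Pik3r1 (20.8% of all windows), and TATAAA in 1 of Pik3r1 (13.6%). In Irs1, TGACG overlaps the E-box. The search covered 14 windows of 9 members. The array read Irs2 through 1 probe of 60 bases in its coding sequence, at chr8:11004490-11004549 on the minus strand of mm9, the build of the array files.
No other probe on the array carried this gene name.
Irs2 probe: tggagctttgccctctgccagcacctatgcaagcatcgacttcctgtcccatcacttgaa

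Irs2 was the member that changed. Its mRNA fell in HFoleic to 0.449 of the reference level, and HFepa lay between the groups without differing from either beyond the test across all probes. Normalized log2 signals (quantile normalized log2 median intensity, a relative scale on which 1 unit is a doubling) of Irs2 were 11.18, 12.36 and 12.92 as lowest, median and highest of the 9 reference mice. The 8 HFoleic mice had 10.42, 11.08 and 11.45, and the 7 HFepa mice 11.17, 12 and 12.20. HFoleic and reference overlapped through reference mouse 8 alone, at 11.18, and the next reference mouse stood at 11.75. HFepa split into 4 mice from 12 to 12.20 that lay above every HFoleic mouse, and 3 mice at 11.17, 11.30 and 11.41 that lay within the HFoleic range.

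The mean log2 signal of Irs2 was 12.21 ± 0.54 in reference (SD, n = 9), 11.05 ± 0.31 in HFoleic (n = 8) and 11.75 ± 0.44 in HFepa (n = 7). The log2 fold change of HFoleic against reference was -1.16 (SE 0.20, 95% interval -1.57 to -0.74, adjusted p = 0.00169), and all 8 HFoleic mice lay below the reference mean. By p-value this was rank 122 of the 30003 probes, and by size rank 81. HFepa against reference gave -0.46 (SE 0.21, interval -0.89 to -0.02, adjusted p = 0.342), with 7 of 7 mice below the reference mean. HFepa against HFoleic gave 0.70 (SE 0.22, interval 0.25 to 1.15, adjusted p = 0.267), with 7 of 7 mice above the HFoleic mean. Taken for this gene alone, two-sided exact permutation of the group labels gave p = 0.000329 for HFoleic against reference, 0.0935 for HFepa against reference and 0.00466 for HFepa against HFoleic (0.000987, 0.0935 and 0.00699 adjusted over the 3 comparisons). In the order of levels, reference over HFepa over HFoleic, neighbours did not differ by limma's p adjusted over all probes and the ends did. The low permutation p of HFepa against HFoleic covers this gene alone. Irs2 was chosen with earlier results of these data known, so that p is no independent support for a difference.

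Irs2 was lower in HFoleic than in reference on each of the 3 array slides, by -1.17, -1.63 and -0.74 on the log2 scale. The difference of HFepa from HFoleic was 0.98, 1.02 and 0.12 on the same slides, from 2 and 3, 3 and 2, and 2 and 3 mice. Slide 3 showed little of it, and its 2 HFepa mice, at 11.17 and 11.30, were among the 3 low ones described above. Reference mouse 8 was the lowest of its group not only for Irs2 but also for Pck1, Igfbp1, G6pc and Ppargc1a. Without it, Irs2 was -1.28 in HFoleic (adjusted p = 0.000172) and -0.58 in HFepa (adjusted p = 0.109) against reference.

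Clock genes were set beside Irs2. In HFoleic against reference 1 of 8 tested genes of the Per phase was called, Nr1d2 at 0.58 (adjusted p = 0.01), and 0 of 3 of the Bmal1 phase, and in HFepa limma called 0 of either list. The Per phase genes had a median of 0.56 in HFoleic, with Per1 on the other side at -0.86. A clock score was the mean log2 signal of 3 genes of the Bmal1 phase minus that of 8 genes of the Per phase. The genes were not standardized, so those that varied most weighed most in it. The score ran from 0.17 to 1.68 in reference (median 1), from -0.82 to 1.25 in HFoleic (median 0.01) and from -1.46 to 1.66 in HFepa (median 0.38). The groups overlapped, and the score itself was not tested between them. With this score as a covariate the log2 fold change of Irs2 was -0.82 in HFoleic (adjusted p = 0.0105) and -0.21 in HFepa (adjusted p = 0.623) against reference, and 0.61 between the lineages (adjusted p = 0.212). The 3 HFepa mice with low Irs2 had scores of -1.46, -0.37 and 0.32, and the other HFepa mice 0.38 to 1.66. The same 3 mice had 29103 to 30271 probes well above background, against 31492 to 32812 in the others. They lay on row 2 of their slides, as did HFepa mouse 2 of the others. The part of these in the Irs2 values was not tested.

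**Figure D1:**
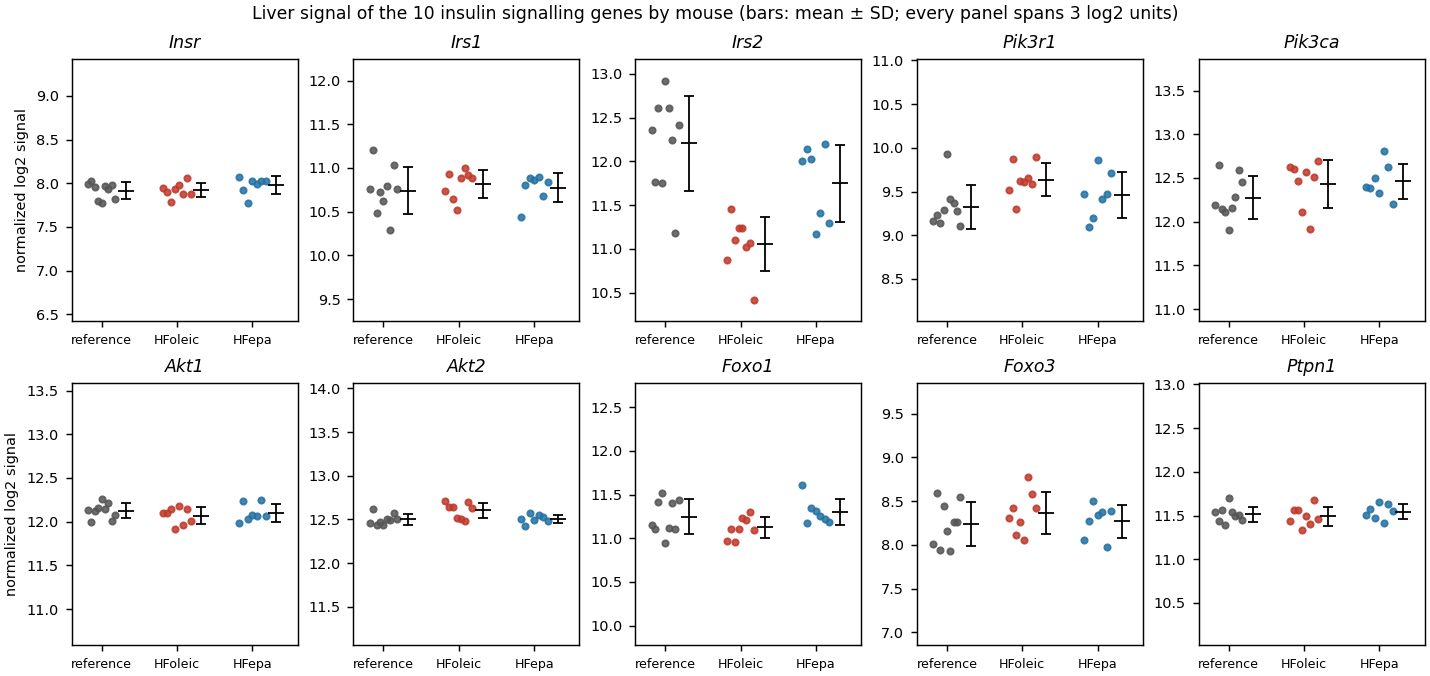
Normalized log2 signal of the brightest tested probe of each of the 10 genes, 1 point per mouse, in reference (9), HFoleic (8) and HFepa (7). Bars are mean ± SD and every panel spans the same 3 log2 units. Irs2 falls from a mean of 12.21 in reference to 11.05 in HFoleic, while the group means of the other 9 genes lie within 0.31 of each other.

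Of the 19 tested member probes, 1 was called in HFoleic against reference (5.26%), the Irs2 probe, against 7.23% of all 30003 tested probes. In HFepa against reference 0 of 19 were called by limma, against 0.393% of all probes, and between HFepa and HFoleic 0 of 19, against 0.0%. At an unadjusted p under 0.05 the counts were 4, 1 and 3 of 19, or 21.1%, 5.26% and 15.8%, beside 21.1%, 13.5% and 9.70% of all probes. The methods' t-test with Benjamini-Hochberg adjustment called 0 of 30002 probes in HFepa against reference and 0 of 30003 between the lineages. Its 0 members there therefore say nothing about the members in particular. The median log2 fold change of the 19 probes was 0.03 in HFoleic and 0.03 in HFepa against reference, and that of all probes was within 0.01 of 0. The count of called members is thus no higher than the share over the array, and what stands out is the size of the change in Irs2: the other 9 genes ranged from -0.13 to 0.31 in HFoleic, on their brightest probes.

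The receptor and the other adaptor showed no called change. Insr, read by 2 probes, had log2 fold changes of 0.01 and -0.08 in HFoleic and 0.06 and -0.07 in HFepa against reference. The brighter Insr probe ranged from 7.77 to 8.02 in reference, 7.79 to 8.06 in HFoleic and 7.77 to 8.07 in HFepa, and the groups overlapped throughout. Irs1, the adaptor that works beside Irs2, had log2 signals of 10.29, 10.76 and 11.20 in reference, 10.52, 10.88 and 11 in HFoleic and 10.44, 10.84 and 10.90 in HFepa as lowest, median and highest. All 3 groups overlapped. Its log2 fold changes were 0.07 (interval -0.13 to 0.28) in HFoleic and 0.03 (interval -0.18 to 0.24) in HFepa against reference, and -0.04 (interval -0.26 to 0.18) between the lineages, so a change of the size seen in Irs2 lies outside each interval.

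Pik3r1, the regulatory subunit of phosphoinositide 3-kinase, had the largest fold change of the other members in HFoleic, but it was not called. Its log2 signal was 9.11, 9.28 and 9.93 in reference, 9.30, 9.62 and 9.89 in HFoleic and 9.10, 9.47 and 9.86 in HFepa as lowest, median and highest. The groups overlapped, with reference mouse 5 at 9.93 well above the next reference mouse at 9.42. The log2 fold change was 0.31 (SE 0.11, adjusted p = 0.0950) in HFoleic, and without reference mouse 5 it was 0.38 (adjusted p = 0.0149). Pik3ca, the catalytic subunit p110 alpha, had 0.16 in HFoleic and 0.19 in HFepa against reference, with adjusted p = 0.455 and 0.524. The Pik3r1 probe maps across a splice junction (chr13:102459406-102460448, mm9, minus strand), and the Pik3ca probe lies at chr3:32364747-32364806 on the plus strand.

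Akt1 and Akt2, the kinases that carry the signal to FoxO, showed no called change on any of their probes. The brightest Akt2 probe ranged from 12.44 to 12.62 in reference, 12.48 to 12.71 in HFoleic and 12.42 to 12.57 in HFepa, and 5 of 8 HFoleic mice lay above every reference mouse. Its log2 fold change in HFoleic was 0.10 (SE 0.04, adjusted p = 0.159), and the other 2 Akt2 probes gave 0.12 and 0.03. The 3 Akt1 probes gave -0.05, -0.02 and 0.06 in HFoleic and -0.02, -0.11 and 0.10 in HFepa against reference, and correlated with each other over the 24 mice at -0.35 to 0.21. The brightest Akt1 probe ranged from 12 to 12.26 in reference, and the dimmest from 6.77 to 7.79. Ptpn1, which encodes the phosphatase PTP1B that removes phosphate from the receptor, had -0.02 on both tested probes in HFoleic and 0.03 and 0.04 in HFepa.

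Foxo1, the main FoxO factor of hepatocytes, was the member with the clearest separation between the lineages, on 1 of its 2 probes and on a small scale. On the probe at chr3:52153289-52153348 (mm9, plus strand) its log2 signal was 9.85, 10.19 and 10.48 in reference, 9.90, 10.09 and 10.14 in HFoleic and 10.18, 10.38 and 10.43 in HFepa as lowest, median and highest. All 7 HFepa mice lay above all 8 HFoleic mice, and reference overlapped both groups. It was 1 of 19 member probes without overlap between the lineages, beside 0.147% of all tested probes (44 of 30003), and in the comparisons of HFoleic and of HFepa with reference 0 of 19 separated, beside 0.573% and 0.113% of all probes. The log2 fold change of HFepa against HFoleic was 0.28 (SE 0.08, adjusted p = 0.193). It therefore did not pass the test across all probes. The study also measured Foxo1 by quantitative PCR and marked no significant difference between these groups. The brighter Foxo1 probe, at chr3:52150946-52151005, gave 0.18 (SE 0.08, adjusted p = 0.505), with 3 of 7 HFepa mice above every HFoleic mouse, and correlated with the other probe at 0.67 over the 24 mice. Against reference the 2 probes were at -0.18 and -0.13 in HFoleic and at 0.11 and 0.05 in HFepa, none of them called. Without reference mouse 1 the first probe was called in HFoleic against reference, at -0.22 (adjusted p = 0.0360), but not in the other comparisons.

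Foxo3, the other FoxO factor among the members, had 3 tested probes with log2 fold changes of 0.19, 0.08 and 0.13 in HFoleic (adjusted p of 0.338, 0.623 and 0.538) and of -0.02, 0.02 and 0.04 in HFepa against reference. The groups overlapped on each probe, and 1 of the 3 was well above background on 23 of 24 arrays.

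**Figure D2:**
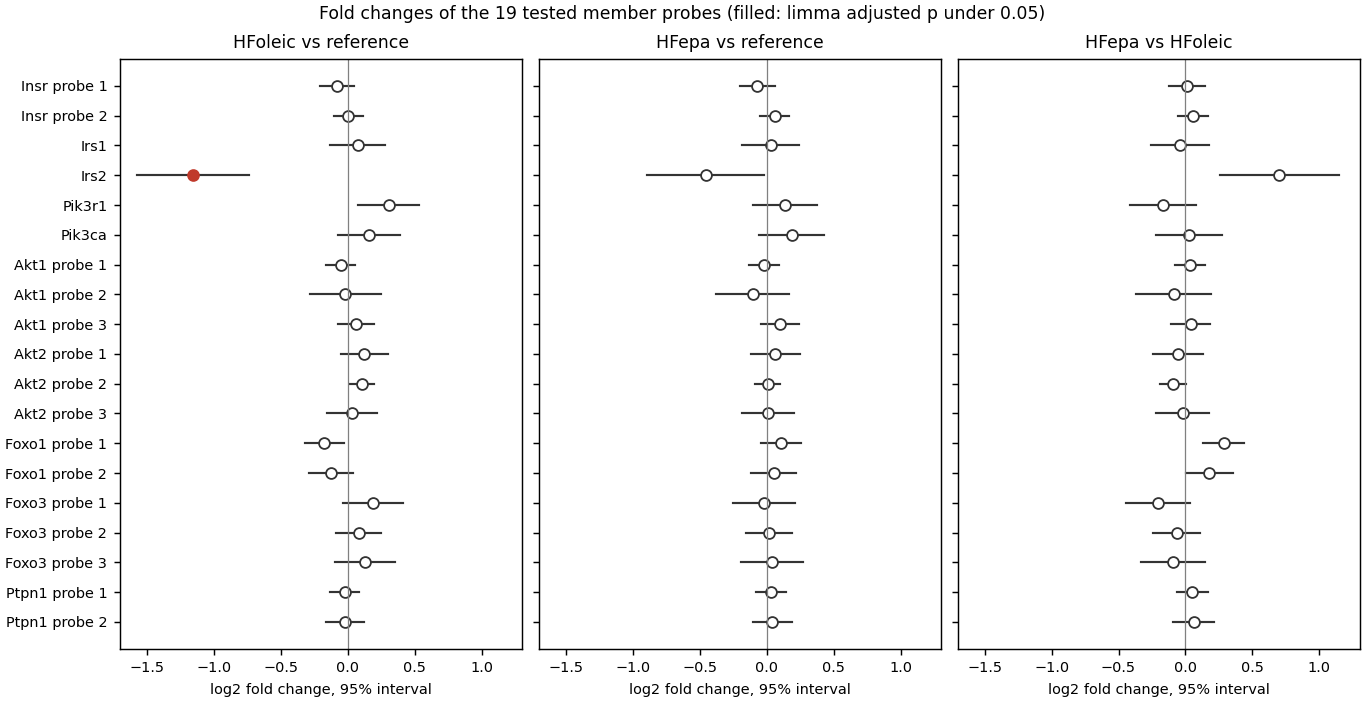
Log2 fold change with its 95% interval for the 19 tested member probes in the 3 comparisons, with filled points for a limma adjusted p under 0.05. The Irs2 probe in HFoleic against reference, at -1.16, is the only filled point, and the Foxo1 probes sit at 0.28 and 0.18 in HFepa against HFoleic.

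The wider pathway was read from lists of 77 further genes in 6 roles, of which 75 were tested on their brightest probe. In HFoleic against reference 2 of the 75 were called higher and 8 lower (13.3%, beside 7.23% of all probes), whereas in HFepa against reference and between the lineages limma called 0 of 75. By role, the called genes lay as follows. Among 12 receptors and adaptors 0 were called, with log2 fold changes from -0.22 to 0.18 and a median of -0.04. Of 8 phosphoinositide enzymes 1 was called, Pdpk1 at -0.21. Of 22 downstream kinases and their partners 2 were, Gsk3a at -0.20 and Rictor at -0.19, and of 13 inhibitors 1, Ptprf at 0.29. Together, the lists of these roles and of receptors and adaptors had 4 of 55 called. That is 7.27%, close to the 7.23% of all probes. Of 8 transcription regulators, Srebf1 and Ppargc1a were called, and of 12 liver targets of insulin and FoxO1, 4.

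The calls among the signalling enzymes were small and did not hold well. Pdpk1, the kinase that activates Akt, was called in 10 of 37 other settings, Rictor, a subunit of mTOR complex 2, in 17, Ptprf, a receptor phosphatase that acts on the insulin receptor, in 25, and Gsk3a, a kinase that Akt inhibits, in 27. For Rictor, 1 of 6 tested probes was called and the mean over the 6 gave -0.04. Socs3, an inhibitor induced by cytokines, had the largest value of its list at 0.47 and was not called.

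Among the 12 liver targets the median log2 fold change was -0.19 in HFoleic and -0.11 in HFepa against reference, and the 4 called genes, Igfbp1, Pck1, G6pc and Ccng2, were all lower in HFoleic. Igfbp1, a secreted binding protein that FoxO1 induces and insulin suppresses, had log2 signals of 14.13, 15.71 and 16.55 in reference, 13.53, 14.15 and 15.38 in HFoleic and 14.41, 14.74 and 15.30 in HFepa as lowest, median and highest. It fell by 1.34 on the log2 scale in HFoleic (SE 0.26, adjusted p = 0.00344), and 4 of 8 mice lay below every reference mouse. HFepa was at -0.73 against reference (adjusted p = 0.220).

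Pck1, the enzyme that commits oxaloacetate to glucose production, ranged from 16.14 to 17 in reference, 15.72 to 16.43 in HFoleic and 16.21 to 16.73 in HFepa. Its log2 fold change was -0.74 in HFoleic (SE 0.11, adjusted p = 0.000602) and -0.29 in HFepa (adjusted p = 0.246) against reference. Apart from reference mouse 8, at 16.14, no reference mouse was under 16.80, and 5 of 7 HFepa mice lay above every HFoleic mouse. The difference between the lineages was 0.44 (SE 0.12, adjusted p = 0.201).

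G6pc, the phosphatase that releases glucose, and Ppargc1a, the coactivator PGC-1 alpha of the fasting response, had another arrangement. G6pc was at -0.52 in HFoleic (adjusted p = 0.00870) and at -0.53 in HFepa (adjusted p = 0.0543) against reference, and the lineages differed by -0.01 (SE 0.13). Ppargc1a was at -0.54 in HFoleic (adjusted p = 0.0296, with both of its probes called) and at -0.62 in HFepa (adjusted p = 0.0700), with -0.08 between the lineages (SE 0.16). For G6pc and Ppargc1a the means of both groups on the obesogenic diet were close, while for Irs2, Igfbp1 and Pck1 the HFepa mean lay between the others. Whether the genes differed in this respect was not tested. The G6pc call was lost with the clock score as a covariate (-0.34, adjusted p = 0.0811). Ppargc1a was called in 27 of 37 settings. The study also measured Ppargc1a by quantitative PCR and marked no significant change in any comparison of the groups.

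Without reference mouse 8, these genes were also called in HFepa against reference: Pck1 at -0.38 (adjusted p = 0.0337), Igfbp1 at -0.91 (adjusted p = 0.0476), G6pc at -0.60 (adjusted p = 0.0116) and Ppargc1a at -0.68 (adjusted p = 0.0229). This mouse was the lowest of its group for each of them, so leaving it out raises their reference means. Over all probes, the calls in that comparison went from 0.393% to 1.66% (497 of 30003) without this mouse. Other omissions went the other way: without HFepa mouse 2, HFepa mouse 6 or reference mouse 2, 0 of 30003 probes were called. In HFepa against reference G6pc was called in 4 further settings, among them without HFepa mouse 3 (-0.57, adjusted p = 0.0366) and without HFoleic mouse 3 (-0.53, adjusted p = 0.0410). The 0 of 75 calls therefore rested in part on single mice.

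Srebf1, the gene of the lipogenic transcription factor SREBP1 that insulin raises, went the other way. It was at 1.02 in HFoleic (SE 0.22, adjusted p = 0.00552), with 6 of 8 mice above every reference mouse, and at 0.41 in HFepa (adjusted p = 0.448). Ccng2, a FoxO target that slows the cell cycle, was called at -0.42 in HFoleic on 1 of 2 probes, and in 21 of 37 other settings.

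**Figure D3:**
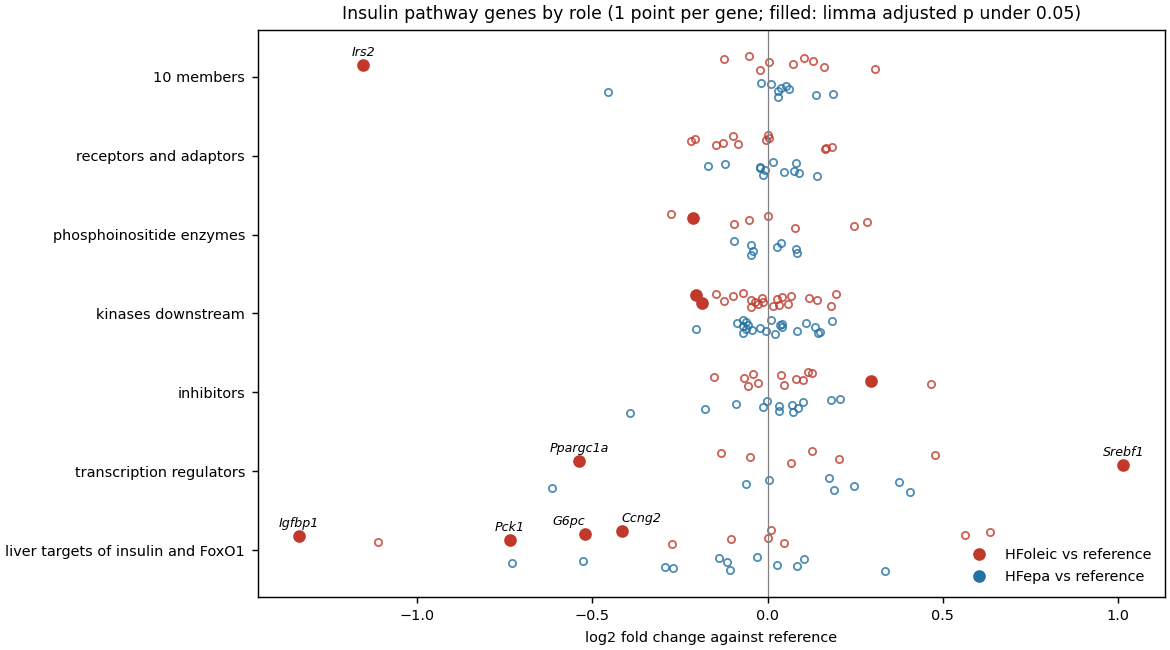
Log2 fold change against reference for the 10 members and for 75 tested genes of 6 pathway roles, 1 point per gene and comparison, with filled points for a limma adjusted p under 0.05. Called genes over 0.4 in size are named, and apart from Irs2 they lie among the transcription regulators and liver targets.

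Irs2 followed several of these genes from mouse to mouse. Correlations of the log2 signal of Irs2 with 5 named genes were computed over the 24 mice, with permutation p-values (100000 resamples, two-sided) adjusted over the 5. With Pck1, Pearson's r was 0.89 (permutation p = 1e-05, the smallest possible, adjusted 2.5e-05) and Spearman's rho 0.88 (permutation p = 1e-05, adjusted 5e-05). Because the groups differ in both genes, deviations from the group means were correlated too, which gave r = 0.71 (permutation p = 0.00022, adjusted 0.0011). Within reference, HFoleic and HFepa r was 0.80, 0.57 and 0.74. Without the 2 mice farthest from the median of Irs2 it was 0.86, and on the 3 slides it was 0.90, 0.97 and 0.79.

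Igfbp1 and G6pc followed Irs2 in the same direction. For Igfbp1 r was 0.84 and rho 0.81 (permutation p = 1e-05 and 2e-05, adjusted 2.5e-05 and 5e-05), 0.76 without the 2 farthest mice, 0.66, 0.92 and 0.95 on the slides, and 0.65 for the deviations (adjusted permutation p = 0.00202). For G6pc r was 0.73 and rho 0.75 (permutation p = 5e-05 and 4e-05, adjusted 8.33e-05 and 6.67e-05), 0.70 without the 2 farthest mice, 0.54, 0.79 and 0.90 on the slides, and 0.62 for the deviations (adjusted permutation p = 0.00202). Within reference, HFoleic and HFepa r was 0.80, 0.36 and 0.70 for Igfbp1 and 0.71, 0.49 and 0.75 for G6pc, lowest within HFoleic for both, a difference that was not tested.

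Srebf1 ran against Irs2 across the mice, but less clearly within groups. For Srebf1 r was -0.70 and rho -0.75 (permutation p = 0.00025 and 7e-05, adjusted 0.000312 and 8.75e-05), -0.84 without the 2 farthest mice, -0.54, -0.88 and -0.81 on the slides, and -0.37 for the deviations (adjusted permutation p = 0.122). Ppargc1a did not keep 1 relation: r was 0.53 (permutation p = 0.00716, adjusted 0.00716) and rho 0.34 (permutation p = 0.102), 0.38 without the 2 farthest mice, 0.62, 0.44 and 0.49 on the slides, and within reference, HFoleic and HFepa r was 0.69, -0.08 and -0.68.

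**Figure D4:**
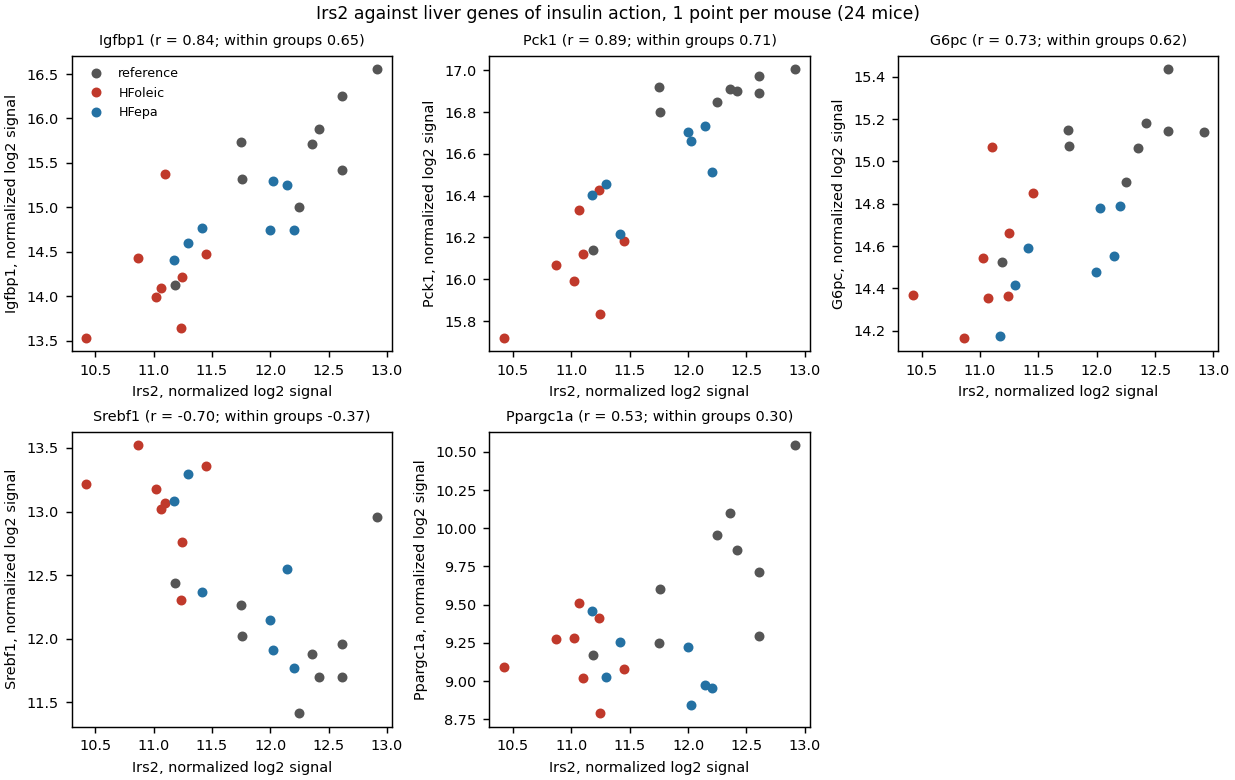
Normalized log2 signal of 5 liver genes of insulin action (vertical axes) against that of Irs2 (horizontal axes), 1 point per mouse for 24 mice, coloured by group. Each panel gives Pearson's r over all mice and, as "within groups", r of the deviations from group means, which is highest for Pck1 at 0.71.

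Among 19291 other gene symbols, each read from its brightest tested probe, the 5 whose log2 signal was most like that of Irs2 over the 24 mice were Mef2d, a transcription factor (r = 0.93, 0.89 for deviations from group means), Nomo1, a protein of the endoplasmic reticulum membrane (0.91 and 0.77), Kif21a, a kinesin motor (0.90 and 0.76), Tbc1d8 (0.89 and 0.78) and Pck1 (0.89 and 0.71). They were picked for this likeness, so the values are a description. All 5 were also called lower in HFoleic than in reference, by 0.50, 0.30, 0.43, 0.66 and 0.74 on the log2 scale. Of the other members, Akt1 was the most like Irs2 (r = 0.49, rank 1811) and Akt2 the least (r = -0.61).

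Cell types were checked through their markers. All 8 hepatocyte markers were well above background on all 24 arrays. The log2 of their summed signals ran from 20.04 to 20.17 in reference, 20 to 20.10 in HFoleic and 20.02 to 20.15 in HFepa. In such a sum the brightest markers weigh most. In HFoleic 2 of the 8 were called lower, Cps1 at -0.89 and Tat at -0.63. Of 5 stellate cell markers 1 was called higher there, Lrat at 0.56 (adjusted p = 0.0015, with 7 of 8 mice above every reference mouse). The median of the 5 was on the other side, at -0.09, and the lowest was -0.29. Of 4 tested bile duct markers 1 was called lower, Sox9 at -0.65 (adjusted p = 0.0279, on 1 of 2 probes). Of 6 macrophage, 4 endothelial, 5 blood and 4 adipocyte markers limma called 0 in HFoleic, and in HFepa against reference it called 0 in any of these lists. The log2 of summed signals ran from 13.44 to 14.78, 13.86 to 14.70 and 14.15 to 14.89 for macrophages, in the same order of groups. For the 4 tested adipocyte markers it ran from 8.78 to 12.60, 8.87 to 13.44 and 8.74 to 12.51. Of 5 pancreas and 3 skeletal muscle markers, 1 each was bright enough to test. The part of these cells in the values of Irs2 was not tested, and in whole liver fewer cells of a type and less RNA per cell cannot be told apart.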

How the data were processed

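The authors deposited each array's scanner output (Agilent Feature Extraction 10.10.1.1), whose median signals are raw intensities and whose flags for outliers and for detection over background take 0 or 1, per the file headers. They also deposited quantile normalized log2 values for 32176 probes after a filter not given in the sources used here, which served as an alternative. Between 28804 and 34432 probes per array were well above background, and 0 spots were saturated. The number of arrays limits the precision.

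Log2 median signals were averaged per probe without outlier spots. A probe was kept if some group had it well above background on 75% or more of its arrays, and kept probes were quantile normalized. All 24 arrays entered 1 limma fit (lmFit and eBayes, limma 3.58.1, R 4.3.3), checked on simulated data, with 3 two-sided contrasts, Benjamini-Hochberg adjustment over 30003 probes and calls at an adjusted p under 0.05. Moderated contrasts of group means are a choice made here, and the pairwise t-test named in the study is called the methods' t-test. A gene with several probes was read from its brightest tested probe unless stated. Permutations and correlations used scipy 1.17.1 (Python 3.11.15), and figures matplotlib 3.10.9.

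Alternatives were the processed signal, normexp, median centring, the deposited values, other filters, the methods' t-test, 2 groups only, blocks for slide, row and replicate number, a clock score, gene means and leaving out each mouse. Members, pathway lists and markers were chosen with earlier results of these data known. Named were all members, wider-list genes called on their brightest probe (up to 12, by p), 5 fixed target and regulator genes and the 5 genes most like Irs2. In the pathway lists, 1 gene is not reported here and is left out of their counts. Socs3 and the named clock genes and markers were chosen after their values were seen. Of 17 member probes with a RefSeq accession, 17 had the same symbol in the GRCm38.p6 gene table. Probe coordinates are the array's, in mm9. Promoters are RefSeq's, GRCm38.p6.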

Additional observations from a re-analysis of the deposited data

Results flagged for a closer look

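A mouse was singled out when its gap to the nearest mouse of its group was large for the range of that group (Dixon's test at its 95% value). Among 72 groups of values, 6 were, where chance alone gives about 3.6. In reference, Pck1 was 16.14 in mouse 8, against 16.80 or more in the rest. Pik3r1 was 9.93 in reference mouse 5, against 9.42 or less, and 1 Akt2 probe was 8.44 in the same mouse, against 8.81 or more. A Foxo3 probe was 5.77 in reference mouse 6, the next being 6.08. In HFoleic mouse 5 the dimmer Insr probe was 6.23, the next being 6.42. In HFepa mouse 1 the brighter Foxo1 probe was 11.61, against 11.35 or less in the rest. Their causes were not tested.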

How the results depend on the processing

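Irs2 in HFoleic against reference was called with the same direction under all 13 processing alternatives (-1.16 to -0.82) and in all 24 fits that left out a mouse (-1.28 to -1.07). In HFepa against reference it was not called in any of these (-0.58 to -0.21), nor between the lineages (0.58 to 0.80). The count of member probes called in HFoleic was 1 under every processing alternative and 1 to 2 with a mouse left out: without reference mouse 5 Pik3r1 was called too, and without reference mouse 1 a Foxo1 probe. It stayed 0 in the other comparisons. Correlations of deviations from group means between mice of the same replicate number ran from -0.298 to 0.348. Mice of unlike numbers were not compared, so whether the numbers pair the mice cannot be judged from these values. With the replicate number as a block Irs2 was -1.13, -0.55 and 0.58 in HFoleic and HFepa against reference and between the lineages, and the member counts were 1, 0 and 0. Without a mouse, no lone sample was left in any group. Values near 0 changed sign, none of them called. In HFoleic against reference, Insr was -0.009 with the processed signal, -0.002 with normexp, -0.007 with the replicate block, -0.035 with the clock score, -0.038 over its probes and -0.015 to 0.024 with a mouse left out. There, Irs1 was -0.028 with the clock score, Akt1 0.011 with the processed signal, and Ptpn1 0.041 with the processed signal, 0.028 with median centring and -0.048 to 0.002 with a mouse left out. In HFepa against reference, Insr was -0.006 over its probes. Irs1 was -0.042 with the clock score and -0.025 to 0.088 with a mouse left out. Akt1 was 0.014 with the processed signal, 0.005 with median centring and 0.007 with the clock score, and Akt2 -0.001 to 0.025 with a mouse left out. Foxo3 was -0.025 with the processed signal, -0.011 with normexp, -0.038 with the clock score and -0.001 to 0.086 with a mouse left out, Gsk3a 0.046 over its probes, and Ccng2 0.014 with the clock score. Between the lineages, Irs1 was -0.084 to 0.013 and Pik3ca -0.046 to 0.071 with a mouse left out, Pik3ca -0.003 with the processed signal, and Akt1 -0.006 and Rictor -0.043 over their probes. G6pc was 0.005 with the processed signal, 0.007 with median centring, 0.004 with the slide row as a block and -0.061 to 0.068 with a mouse left out. The alternatives for the wider-list genes were added after seeing the data. The causes were not tested.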

Other observations

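Reference mouse 8 stood with the mice on the obesogenic diet for several genes of insulin action. Among the 9 reference mice it had the lowest Igfbp1 (14.13, the rest at 15.01 or more), the lowest G6pc (14.52, the rest at 14.90 or more) and the lowest Ppargc1a (9.17, the rest at 9.25 or more). Srebf1 in this mouse, at 12.44, was rank 8 from the lowest of the group, and Pdk4, at 10.47, rank 3 from the lowest. It also had the lowest clock score (0.17, the rest at 0.58 or more) and, with 30054, the fewest probes well above background in the group. The part of these in its low Irs2 was not tested.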
